A study of Mus musculus with 6 samples.

Results

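The genes described here encode the proteins of the cytosolic ribosome, and their RNA was measured in MIN6B1, an insulin-producing cell line from a mouse insulinoma that stands in for pancreatic beta cells. Members were chosen by gene symbol alone: Rpl or Rps followed by a number, plus Rplp0, Rplp1, Rplp2 and Rpsa, without the Rps6k kinases, pseudogenes by name and symbols ending in Rik. Of 39429 array probes that were not controls, 196 matched by name, 16 were kinase probes and 2 were pseudogene probes, which left 178 probes of 88 genes, out of 32451 genes and unnamed transcripts on the array. The 88 genes were 31 of the small subunit, 43 of the large subunit, 3 of the acidic stalk, 8 paralogs of a core gene, the retrogene Rps23rg1, the like-named Rpl32l, and Rps19bp1, which encodes a protein that binds Rps19 and is not itself part of the ribosome.

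Of the 6 samples, 3 received a small interfering RNA (siRNA) against green fluorescent protein (siGFP, the control) and 3 an siRNA against circHIPK3, the circular RNA that is spliced from transcripts of Hipk3. All were transfected with the same lipid reagent, and total RNA was labelled with Cy3 and hybridised to 1 Agilent array per sample after 48 h. Whether the replicates came from separate cultures is not stated in the labels, and the p-values then reflect only the spread among these samples, possibly technical. Each group is a transfected population of a single tumour-derived line, and knockdown of the circular RNA itself was not assessed here. The brightest Hipk3 probe read 2.69, 2.96 and 2.78 on the siGFP arrays and 2.53, 2.89 and 2.51 on the circHIPK3 siRNA arrays, a log2 change of -0.17 ± 0.14 (SE, n = 3 per group, limma adjusted p = 0.5004). Where that probe lies relative to the circularised exon was not analysed here.

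Each array's processed signal had its 75th percentile at 2939 to 3669 units, 77.7% to 83.5% of probes were well above background, and no probe was saturated. The number of arrays, 3 per group, limits the precision of the values below. Values are log2 signals relative to the 75th percentile of the array, so a level of 5 lies 5 doublings above that point, and changes are circHIPK3 siRNA minus siGFP. By the file headers, the 3 siGFP arrays and circHIPK3 siRNA replicate 1 were read in one scan, called the first scan below, and circHIPK3 siRNA replicates 2 and 3 in another. The siGFP arrays read at 6.67 for Ins1 and 6.95 for Ins2, which mark beta cells, and at 7.04 for Chga, which other endocrine cells also express. They read at -5.37 for Sst of delta cells, -4.49 for Ptprc of blood cells and -6.25 for Col3a1 of stroma. Other markers of such cells were less dim, with Ppy at -2.14, Ghrl at -2.57, Pecam1 of vessels at -2.64 and Col1a1 of stroma at -2.24. Gcg, the glucagon gene of alpha cells, was far brighter at 4.39.

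The cytosolic ribosome has a small subunit, which reads the messenger RNA, and a large subunit, which joins the amino acids and carries a flexible stalk of acidic proteins that recruits elongation factors. The messenger RNAs of its proteins are among the most abundant of any cell, and in secretory cells such as beta cells many ribosomes serve the synthesis of hormone precursors on the endoplasmic reticulum. Most mammalian ribosomal protein messenger RNAs start with a C followed by an unbroken run of pyrimidines (C or T), the terminal oligopyrimidine or TOP motif, through which mTORC1 and the binding protein Larp1 control their translation, stability and storage together. The arrays measured RNA levels, not translation.

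A feature that the choice by symbol did not use, and that was more common in members than in all genes, is visible at the transcription start. RefSeq start windows of build GRCm38.p6 were found for 67 of the 88 genes. On the strand of the gene, 26 of these 67 (38.8%) had a run of at least 8 C or T bases that touched the 5 bases either side of the annotated start, against 11.4% of 27025 genes in the table. That count does not ask for a C at the start itself, so it is looser than the TOP motif. The windows below show 10 bases before the start and 20 bases from it on, with a run of that length in capitals. They cover members with low, middle and high changes, and they are printed to show the run at the start of members that have it beside the start of members that lack it.
Rps18: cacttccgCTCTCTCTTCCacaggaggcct
Rplp2: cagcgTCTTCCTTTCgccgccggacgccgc
Rpl15: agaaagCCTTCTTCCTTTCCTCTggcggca
Rps6: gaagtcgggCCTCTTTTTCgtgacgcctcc
Rpl27a: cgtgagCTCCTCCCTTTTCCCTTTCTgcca
Rplp0: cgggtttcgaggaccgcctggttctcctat
Rpl11: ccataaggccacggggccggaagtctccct
The Rps18 window is chr17:33955646-33955675 on the minus strand, Rplp2 is chr7:141447641-141447670 on the plus strand and Rpl15 is chr14:18270967-18270996 on the minus strand. Rps6 is chr4:86857348-86857377 on the minus strand, Rpl27a is chr7:109519185-109519214 on the plus strand, Rplp0 is chr5:115559457-115559486 on the plus strand and Rpl11 is chr4:136053374-136053403 on the minus strand. The Rplp0 and Rpl11 windows have no run of that length at the annotated start, which says only that these letters are not there. Among tested members, the 26 with a run had a median log2 change of -0.0014 and the 40 without had 0.03. Rps18 and Rpl27a, both with a run, lay near opposite ends of the order of changes.

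The question of the comparison is whether silencing circHIPK3 goes with a change in the RNA of these genes. Ribosomal protein RNA levels differed little between the groups, and no member passed the threshold in either direction. Of the 88 genes, 86 were tested, that is, had a probe that 1 group or both showed well above background on all 3 of its arrays, and 81 of the 86 lay in the brightest quartile of all tested genes. By limma with Benjamini-Hochberg adjustment over all 25772 genes and unnamed transcripts, 0 of 86 were called at an adjusted p under 0.05, where 1.18% of all features were called (303 features, 0.64% lower and 0.535% higher). At an unadjusted p under 0.05, 4 members were lower (Rplp1, Rps27l, Rps18 and Rplp0) and 1 was higher (Rpl3l), or 4.65% and 1.16% of the 86, against 6.51% lower and 14.6% higher over all features. In the brightest quartile, where most members lie, these limma shares were 8.38% lower and 3.34% higher. Rpl3l passed the background filter only through the group in which it was the brighter, and with all arrays required to be well above background 0 members were higher. The lowest adjusted p among members was 0.0982, for Rplp1. In bulk RNA, fewer cells of a kind and less RNA per cell cannot be told apart.

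The changes of the members were narrowly spread. Their median was 0.03, with quartiles of -0.02 and 0.09 and an SD of 0.14 across genes. The median over all tested genes was 0.08, with an SD of 0.29, and over the 6443 genes of the brightest quartile it was -0.01, with an SD of 0.20. Of the members, 61 of 86 lay below the median of all genes and 35 of 86 were below 0. Scaling each array by its median moved the median of all genes to -0.02 and that of the members to -0.08, and cyclic loess put the members' median relative to all genes at 0.03 in place of -0.06, so the side on which the family stood depended on the scaling. Changes smaller than 0.1 in either direction were found for 58 of 86 (67.4%), compared with 50.6% of the brightest quartile and 31.1% of all tested genes. The members were brighter than either set, with a median signal of 4.78 against 2.18 for the brightest quartile and -1.75 for all tested genes. Genes of the same brightness as the members were not compared. For 82 of 86 members the 95% confidence interval of the change lay inside 1.5-fold in either direction, and the exceptions were Rplp1, Rpl4, Rpl10l and Rpl3l. The fit behind these intervals had no term for the scan, so they do not allow for a difference between scans. Within the first scan alone the members' median was 0.10.

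**Figure D1:**
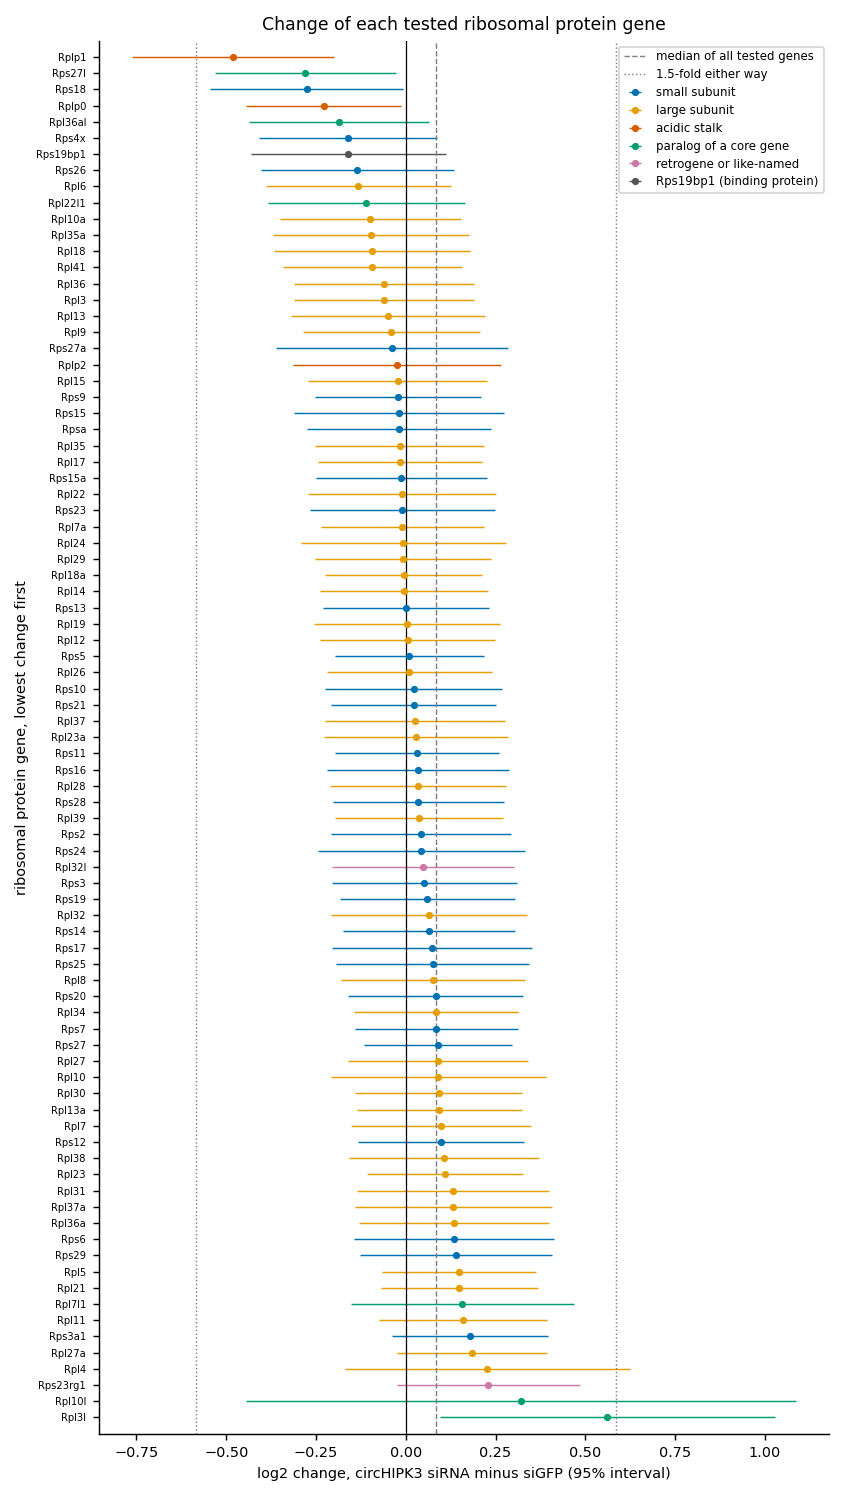
Log2 change (x axis, circHIPK3 siRNA minus siGFP, 3 arrays per group) of 85 of the 86 tested members (y axis, lowest first), with points for the fitted change, bars for the 95% confidence interval and colours for the role of the gene. Most points sit between -0.1 and 0.2, Rplp1 stands lowest at -0.48, and the dim paralogs Rpl10l and Rpl3l have the highest changes with wide intervals.

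The acidic stalk held the lowest change and a change near 0. Rplp1 encodes a stalk tip protein, which pairs with Rplp2 and contacts the elongation factors. Its single probe read 3.14, 2.96 and 3.20 on the siGFP arrays and 2.65, 2.75 and 2.45 on the circHIPK3 siRNA arrays. Every circHIPK3 siRNA array was below every siGFP array. The log2 change was -0.48 ± 0.12 (SE, n = 3 per group, limma adjusted p = 0.0982), or 1.40-fold lower, with a 95% interval of -0.76 to -0.20. Within the first scan alone, where circHIPK3 siRNA replicate 1 stands against the 3 siGFP arrays, the difference was -0.44, and with the scan as a block the adjusted p was 0.456. Rplp1 passed the threshold under 3 of 20 alternative settings, and its adjusted p ranged from 0.0387 to 0.456 over all 20.

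Rplp0 encodes the protein that anchors the stalk to the large subunit, and its RNA is often used as a reference for normalization. The brightest of its 3 probes read 5.58, 5.57 and 5.68 with siGFP and 5.43, 5.34 and 5.36 with circHIPK3 siRNA, so the groups did not overlap. The change was -0.23 ± 0.09 (limma adjusted p = 0.217), and -0.18 within the first scan. Its other probes gave -0.20 and -0.10.

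Rplp2, the partner of Rplp1, read 6.07, 5.76 and 6.05 with siGFP and 6.06, 5.90 and 5.84 with circHIPK3 siRNA. These values overlapped throughout, and siGFP replicate 2 was the lowest of the 6. The change was -0.03 ± 0.12 (limma adjusted p = 0.926), with an interval of -0.31 to 0.26, and its sign turned under 8 of 20 alternative settings. The change of Rplp1 minus that of Rplp2 was -0.46 ± 0.09 (SE), and by a two-sided exact permutation test over the arrays p was 0.1, the smallest p that 3 against 3 arrays allow. Adjusted over the 8 gene pairs compared in this way, p was 0.267. That adjustment leans on the pair of Rpl3l and Rpl3, with a difference of 0.62 and an exact permutation p of 0.1. Rpl3l passed the background filter only through the group in which it was the brighter. Without that pair the adjusted p would be higher. The change of Rplp1 minus that of Rplp0 was -0.25 ± 0.11 (exact p = 0.2, adjusted 0.32). All 8 pairs were picked with the changes known.

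Among the 31 small subunit genes the median change was 0.03, and the range ran from -0.28 for Rps18 to 0.18 for Rps3a1. Rps18, a protein of the small subunit head, read 2.72, 2.57 and 2.79 with siGFP and 2.55, 2.41 and 2.28 with circHIPK3 siRNA. The groups did not overlap, but the highest circHIPK3 siRNA array, replicate 1, lay just below the lowest siGFP array. The change was -0.28 ± 0.11 (limma adjusted p = 0.227), the second Rps18 probe gave -0.24 ± 0.15, and the first scan alone gave -0.14. Rps4x, the X-linked copy of Rps4, read 3.38, 3.39 and 3.40 with siGFP and 3.32, 3.31 and 3.06 with circHIPK3 siRNA, a change of -0.16 ± 0.11 (limma adjusted p = 0.399). Replicate 3 was far below the other arrays, and without it the change was -0.08.

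At the other end, Rps3a1 read 3.83, 3.88 and 3.94 with siGFP and 4.01, 4.12 and 4.05 with circHIPK3 siRNA. The groups did not overlap, and the change was 0.18 ± 0.09 (limma adjusted p = 0.301). The second Rps3a1 probe, nearly as bright (mean 3.76 against 3.88 with siGFP), gave 0.09. Rps6, the substrate of the S6 kinases downstream of mTORC1, read 4.72, 4.85 and 4.86 with siGFP and 5.11, 4.76 and 4.96 with circHIPK3 siRNA. Its circHIPK3 siRNA arrays lay inside and above the siGFP range, and the change was 0.13 ± 0.12 (limma adjusted p = 0.533). The dimmer Rps6 probes gave -0.02 and -0.0016. Rps19, which is mutated in Diamond-Blackfan anaemia, gave a change of 0.06 ± 0.10 (adjusted p = 0.763). Rps19bp1, matched by name only, gave a change of -0.16 ± 0.12 (adjusted p = 0.443).

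The 43 large subunit genes outside the stalk had a median change of 0.03 and a range of -0.13 to 0.23. By limma on the probe that stands for each gene, none reached an unadjusted p under 0.05. With kept probes fitted one by one, a dimmer Rpl6 probe gave -0.24 (limma unadjusted p = 0.0419). A dimmer Rpl31 probe also gave -0.24 (limma unadjusted p = 0.0457). The remaining Rpl6 probes gave -0.13, -0.15 and 0.13, and the remaining Rpl31 probes 0.13, 0.04 and 0.0074. Both probes were named after their values were seen. Among the 43 genes, Rpl27a had the widest gap between the groups. Its brightest probe read 4.27, 4.33 and 4.38 with siGFP and 4.50, 4.52 and 4.51 with circHIPK3 siRNA. All circHIPK3 siRNA arrays were higher, and the change was 0.18 ± 0.09 (limma adjusted p = 0.280). Its dimmer probes gave -0.15 and 0.04, so the probes of this gene differed in sign.

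Rpl4, which lines the exit tunnel, had the highest fitted change of the group at 0.23 ± 0.17 (limma adjusted p = 0.459). It read 5.004, 5.030 and 5.133 with siGFP and 5.116, 5.060 and 5.669 with circHIPK3 siRNA. Replicate 3 was the only array above the siGFP range, and without it the change was 0.03. Rpl5 and Rpl11 bind 5S ribosomal RNA and, when free of ribosomes, the p53 regulator Mdm2. Rpl11 read 5.20, 5.01 and 5.22 with siGFP and 5.32, 5.29 and 5.30 with circHIPK3 siRNA, a change of 0.16 ± 0.10 (adjusted p = 0.379). Its other probes gave -0.03, with overlapping groups, and 0.08, so the change and the separation rest on the probe. On the siGFP arrays the probe at -0.03 was the brighter (mean 5.158 against 5.144). The choice of probe used the mean over all arrays, circHIPK3 siRNA arrays included. Rpl5 gave a change of 0.15 ± 0.09 (adjusted p = 0.377), and for it, as for the probe that stands for Rpl11, every circHIPK3 siRNA array was above every siGFP array. Rpl13a, which also represses translation of selected messenger RNAs when released from the ribosome, gave a change of 0.09 ± 0.10 (adjusted p = 0.601).

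**Figure D2:**
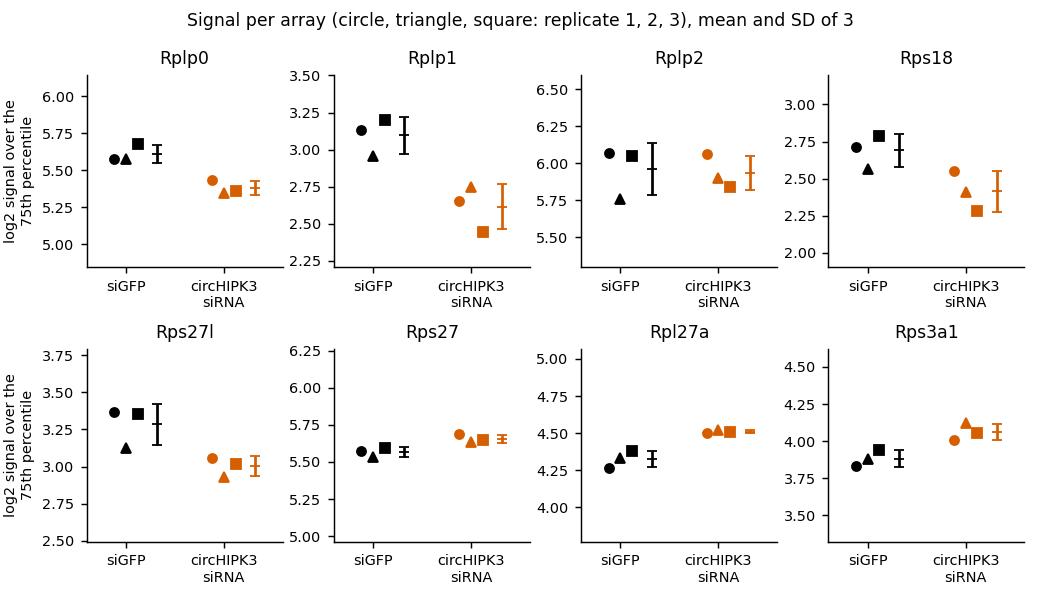
Log2 signal over the array's 75th percentile (y axis) of 8 members in each siGFP array (black) and circHIPK3 siRNA array (orange), with marker shapes for replicates 1 to 3 and bars for the mean and SD of 3 arrays. The y axes differ in position but span the same log2 range. Rplp0, Rplp1, Rps18 and Rps27l do not overlap between groups and are lower with circHIPK3 siRNA, Rplp2 overlaps, and Rps27, Rpl27a and Rps3a1 do not overlap and are higher on this scale, though Rps27 stands at -0.01 under median scaling.

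Counting separation alone, 5 of 86 members (5.81%) had all circHIPK3 siRNA arrays below all siGFP arrays, where 9.38% of all features did. These were Rplp1, Rps27l, Rps18, Rplp0 and Rps4x. The opposite separation was found for 9 of 86 (10.5%), where 16.6% of all features showed it. These were Rps27, Rpl23, Rpl5, Rpl21, Rpl11, Rps3a1, Rpl27a, Rps23rg1 and Rpl3l, of which Rpl23 and Rpl21 were named after their values were seen. The Rpl3l separation is partly set by the filter, through which it passed in the circHIPK3 siRNA group alone, and without it the count was 8 of 85 (9.41%). Rpl11 is counted through a probe picked by its mean over all arrays, while another of its probes, brighter with siGFP, overlapped. A dimmer Rpl21 probe separated the other way, at -1.46, -1.61 and -1.60 with siGFP and -1.67, -1.94 and -1.72 with circHIPK3 siRNA. The remaining Rpl21 probe gave a change of 0.14. Of the dimmer Rpl23 probes, the dimmest gave -0.03, with overlapping groups, and the other gave 0.10. In both directions the members' share was below that of all features. In the brightest quartile the shares were 14.1% lower and 9.16% higher.

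Several core proteins have a paralog gene that can take their place in some tissues, and 6 of the 8 paralogs here were tested. Rps27l, a paralog of Rps27 and a target of p53, read 3.37, 3.13 and 3.36 with siGFP and 3.06, 2.93 and 3.02 with circHIPK3 siRNA. The groups did not overlap, and the change was -0.28 ± 0.11 (limma adjusted p = 0.203), or -0.22 within the first scan. Rps27 itself read 5.57, 5.53 and 5.60 with siGFP and 5.69, 5.63 and 5.65 with circHIPK3 siRNA, a change of 0.09 ± 0.09 (adjusted p = 0.571), and its other probes gave 0.06, 0.01 and -0.02. The change of Rps27l minus that of Rps27 was -0.37 ± 0.07 (SE), with an exact permutation p of 0.1 and an adjusted p of 0.267 over the 8 pairs. That difference uses the brightest Rps27 probe alone, and its adjusted p again leans on the pair of Rpl3l and Rpl3.

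Rpl36al and Rpl36a gave changes of -0.19 ± 0.11 (limma adjusted p = 0.342) and 0.13 ± 0.11 (adjusted p = 0.511), and the difference of -0.32 had an exact permutation p of 0.2 (adjusted 0.32). The other Rpl36a probes gave 0.16 and -0.17, the last close to Rpl36al, so the signs of this pair depend on the probe. Rpl36al read 4.77, 4.56 and 4.82 with siGFP and 4.51, 4.49 and 4.59 with circHIPK3 siRNA, with an overlap of a single array. Rpl22l1 gave a change of -0.11 ± 0.12 and Rpl22 of -0.01 ± 0.11, and Rpl7l1 of 0.16 ± 0.13 and Rpl7 of 0.10 ± 0.11. Neither of these pairs differed beyond the spread of the arrays (exact permutation p = 0.6 and 0.8). Near-identical paralogs can share hybridisation, and probe sequences were not used here to check this.

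The tissue-restricted paralogs were dim. Rpl3l, the striated muscle paralog of Rpl3, was well above background on 1 of 3 siGFP arrays and on 3 of 3 circHIPK3 siRNA arrays. It read -6.69, -7.48 and -6.98 with siGFP and -6.63, -6.51 and -6.33 with circHIPK3 siRNA, a change of 0.56 ± 0.20 (limma adjusted p = 0.181). The groups did not overlap, but this probe passed the filter through the circHIPK3 siRNA group alone, in which it was the brighter. Rpl3 gave a change of -0.06 ± 0.11 (adjusted p = 0.772). Rpl10l, a retrogene that stands in for Rpl10 in male germ cells, read -3.93, -4.98 and -5.10 with siGFP and -4.66, -4.43 and -3.95 with circHIPK3 siRNA. The spread within the siGFP group exceeded the change of 0.32 ± 0.33 (adjusted p = 0.589), and Rpl10 gave a change of 0.09 ± 0.13. The change of Rpl10l minus that of Rpl10 was 0.23 (exact permutation p = 0.7). Rpl39l, known from the testis, was well above background on 1 siGFP array and 2 circHIPK3 siRNA arrays, and Rps4l, annotated as a transcribed pseudogene, on 0 and 1, so neither was tested. Rpl39, the core gene of the first, gave a change of 0.04 ± 0.10. Rps23rg1, a mouse retrogene of Rps23, read -1.29, -1.51 and -1.44 with siGFP and -1.28, -1.21 and -1.07 with circHIPK3 siRNA, a change of 0.23 ± 0.11 (adjusted p = 0.273).

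Several probes of a gene gave a check within the arrays. Of the 178 member probes 175 were kept, and 52 genes had at least 2 kept probes (141 probes in all). The changes of the probes of a gene spanned a median of 0.11, and in 26 of the 52 genes all probes lay on the same side of 0 (14 lower, 12 higher). In 7 genes the span exceeded 0.3: Rpsa, Rps27a, Rpl6, Rpl31, Rpl21, Rpl27a and Rpl36a. Rpsa, a small subunit protein also known as the laminin receptor, had the widest span. Its brightest probe gave a change of -0.02 ± 0.11, a further pair of -0.11 and -0.10, and its dimmest probe of -0.68 ± 0.13. That dimmest probe read -3.34, -3.61 and -3.22 with siGFP and -4.09, -3.97 and -4.15 with circHIPK3 siRNA, with an adjusted p of 0.0551 by limma over 31371 probes fitted one by one. The dimmest probe of Rps27a, which encodes a ubiquitin fused to a ribosomal protein, read -3.04, -3.27 and -3.28 with siGFP and -2.58, -3.11 and -2.24 with circHIPK3 siRNA, a change of 0.56 ± 0.21, against -0.04 and 0.07 for its other probes. No deposited column used here says which part of the transcript each probe covers, and the reason for these differences was not tested.

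**Figure D3:**
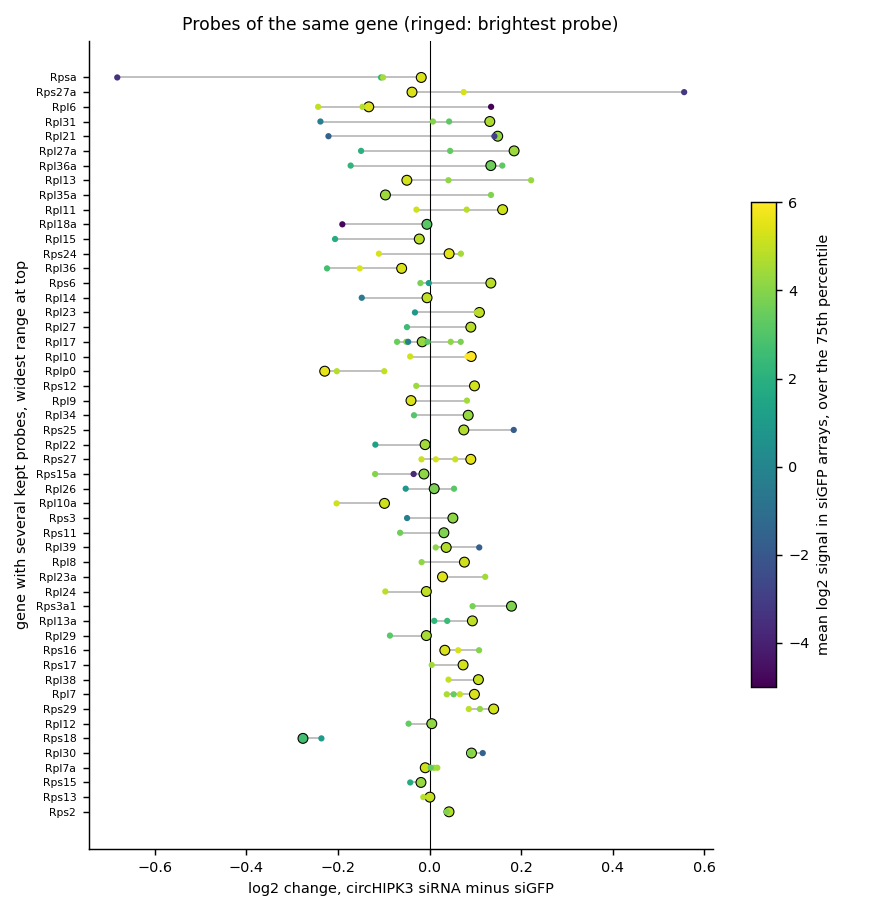
Log2 change (x axis, circHIPK3 siRNA minus siGFP) of every kept probe of 51 of the 52 members with at least 2 kept probes (y axis, widest span at the top), coloured by mean log2 signal on the siGFP arrays. Ringed points are the brightest probe of each gene by the mean over all arrays. The farthest points, at -0.68 for Rpsa and 0.56 for Rps27a, are dim probes, and the ringed points lie between -0.28 and 0.18.

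The members shifted together between arrays, also within a group. Relative to the mean of the siGFP arrays, the median member stood at 0.00, -0.08 and 0.08 on siGFP replicates 1, 2 and 3 and at 0.10, 0.00 and -0.05 on circHIPK3 siRNA replicates 1, 2 and 3. The range inside each group was larger than the difference of 0.03 between the groups. In the brightest quartile the corresponding medians were 0.01, -0.05 and 0.04 with siGFP and 0.00, 0.00 and -0.05 with circHIPK3 siRNA. Of the 86 members, 80 (93.0%) were lower on siGFP replicate 2 than on siGFP replicate 3, compared with 69.1% of the brightest quartile. On circHIPK3 siRNA replicate 2, 72 of 86 (83.7%) were lower than on replicate 1, compared with 51.3% of the brightest quartile and 46.5% of all tested genes. On replicate 3, 66 of 86 (76.7%) were lower than on replicate 1, compared with 60.6% and 41.3%.

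The difference between the groups was not alike in both scans. In the first scan, circHIPK3 siRNA replicate 1 was above the mean of the siGFP arrays in 74 of 86 members, with a median of 0.10, compared with 3252 of 6443 genes of the brightest quartile. The mean of circHIPK3 siRNA replicates 2 and 3, from the other scan, was below the siGFP mean in 47 of 86 members (54.65%), with a median of -0.01. That share was near the 55.63% of the brightest quartile, where the median was -0.02. With the scan as a block the median change of the members was 0.10, and relative to all genes it was 0.06, against -0.06 without the block. The block fit takes its changes from circHIPK3 siRNA replicate 1 against the siGFP arrays, so they equal those of the first scan alone. So the family's median stood on opposite sides of that of all genes with and without the block. Leaving out siGFP replicate 3 or circHIPK3 siRNA replicate 3 moved the relative median to -0.01 and -0.0056. The second scan holds no siGFP array, so in it scan and group cannot be told apart.

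**Figure D4:**
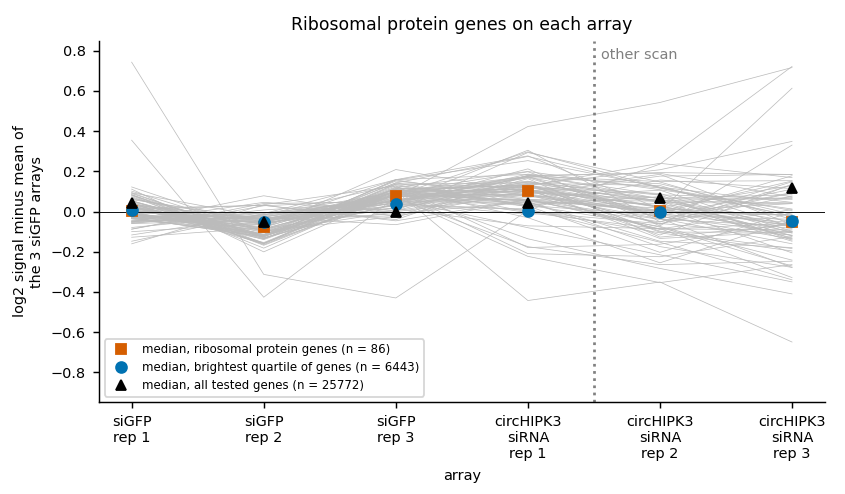
Log2 signal of each of the 86 tested members (grey lines) on each array (x axis), relative to its mean over the 3 siGFP arrays (y axis), with the medians over members, over the brightest quartile and over all tested genes as symbols. The vertical dotted line separates the scans. The member median is highest on circHIPK3 siRNA replicate 1, at 0.10, and lowest on siGFP replicate 2, at -0.08.

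Genes that act with the ribosomal proteins were read from 3 lists. The first held translation factors and other genes whose messenger RNAs carry the TOP motif. Of its 30 genes 29 were tested, 0 were called by limma, and at an unadjusted p under 0.05 there were 0 lower and 3 higher (10.3%), where 6.51% of all features were lower and 14.6% higher. The median change was 0.01. Btf3, a subunit of the nascent polypeptide-associated complex, read 4.05, 3.98 and 3.96 with siGFP and 4.26, 4.21 and 4.29 with circHIPK3 siRNA (0.26 ± 0.09, adjusted p = 0.180). Eif4b, a cofactor of the cap-binding helicase, gave a change of 0.24 ± 0.09 (adjusted p = 0.211), and the intermediate filament gene Vim, which was dim, of 0.48 ± 0.19 (adjusted p = 0.217). The ribosome-bound protein Rack1 gave a change of 0.10 ± 0.09, and the elongation factor genes Eef1a1 and Eef2 of -0.03 ± 0.12 and 0.05 ± 0.10. Fau, whose product is a fusion that releases a ribosomal protein, gave a change of 0.09 ± 0.12. These 4 genes were named after their values were seen.

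The second list held 68 ribosome biogenesis genes, all tested, with a median change of 0.05. None was called by limma, and at an unadjusted p under 0.05 there were 5 lower (7.35%) and 1 higher (1.47%), against 6.51% and 14.6% of all features. Nop10, a core protein of the particles that convert uridine to pseudouridine in ribosomal RNA, had the smallest p of the list. It read 0.70, 0.60 and 0.42 with siGFP and 0.09, -0.14 and -0.11 with circHIPK3 siRNA, a change of -0.63 ± 0.12 (adjusted p = 0.0561). Pes1, needed for maturation of the large subunit, read 1.98, 1.74 and 1.77 with siGFP and 1.25, 1.30 and 1.44 with circHIPK3 siRNA, a change of -0.50 ± 0.11 (adjusted p = 0.0748). In both genes all circHIPK3 siRNA arrays were below all siGFP arrays. Mdn1, a giant ATPase that strips factors from large subunit precursors, gave a change of 0.32 ± 0.11 (adjusted p = 0.175).

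The third list held 20 regulators of growth and translation, all tested, with a median change of -0.01. None was called by limma, and at an unadjusted p under 0.05 there were 4 lower (20.0%) and 0 higher, against the same 6.51% and 14.6%. Tsc2, which restrains mTORC1, read -3.53, -3.44 and -3.44 with siGFP and -3.93, -3.80 and -3.90 with circHIPK3 siRNA, a change of -0.41 ± 0.09 (adjusted p = 0.0813). Eif4ebp2, an inhibitor of the cap-binding protein, gave a change of -0.49 ± 0.12 (adjusted p = 0.0934), and Mlst8, a subunit of both mTOR complexes, of -0.39 ± 0.12 (adjusted p = 0.135). Larp1, which binds TOP messenger RNAs, gave a change of -0.03 ± 0.09, and Mtor of 0.01 ± 0.11. Both were named after their values were seen. Of the genes for mitochondrial ribosomal proteins, 77 of 78 were tested, 0 were called by limma, and the median change was -0.01. At an unadjusted p under 0.05, 7 of them were lower (9.09%) and 0 higher, where all features gave 6.51% and 14.6%.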

How the data were processed

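Deposited scanner files gave a background-subtracted intensity per spot, per the file headers, which the authors made with Agilent Feature Extraction (version 11.0.1.1, also in the submitters' processing notes), with flags such as well above background. A deposited value table held log2 values of the same arrays, whose columns share their distribution (medians 9.80). Its normalization method is not given in the sources used here. It correlated at 0.9999 or above with the log2 intensity of the same array, so genes were not centred and the direction is as measured.

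Log2 intensity minus each array's 75th percentile over 43020 spots that were not controls was used, with outlier spots left out and spots of a probe averaged. Probes were named through unversioned RefSeq accessions (GRCm38.p6), which named 27234 of 39429. The design build in the headers is another one, so array coordinates are not printed. Kept probes were well above background on every array of 1 group or both, and the brightest by the mean over all arrays of both groups stood for its gene. Tests used limma 3.58.1 in R 4.3.3 (lmFit, eBayes, group as the only term, Benjamini-Hochberg, threshold 0.05) and were tested on simulated data. Single values were also given an exact permutation test. Figures used matplotlib 3.10.9 in Python 3.11.15.

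The members and lists were chosen with earlier results of these data known. Named genes are the 8 highest and 8 lowest changes, the stalk genes and Rpsa, paralogs and their core genes, Rps6, Rpl5, Rpl11, Rps19, Rpl13a, and up to 3 genes per list with the smallest p, of which 1 member is not reported here. Alternatives were other scalings, backgrounds, filters, variance models and blocks, the value table, all probes and each array left out, and the first scan alone was added after seeing the data. Normexp used foreground medians with an offset of 50. Same-numbered samples of the groups deviated with correlations of -0.02, 0.27 and -0.13, so the numbers were not taken to pair the samples.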

Additional observations from a re-analysis of the deposited data

How the results depend on the processing

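Each result was recomputed under 20 alternatives. The scan as a block and the first scan alone give the same changes, from circHIPK3 siRNA replicate 1 alone, so counts of alternatives include that contrast more than once. No member was called higher under any of them. Rplp1 was called lower with normexp background (count 1, adjusted p = 0.0497), with trend and robust variance (count 1, 0.0387) and with array weights (count 1, 0.0443), and none under the other 17. No member whose change was 0.2 or more in size turned its sign under another scaling, but among all 86, 34 did so under median scaling, a shift common to all genes (their median moved from 0.08 to -0.02) that leaves genes as they stood relative to each other, 13 under cyclic loess, 8 under normexp and 4 each under quantile normalization and the value table. The members' median relative to all genes, -0.06, moved to 0.026 with cyclic loess, to 0.0075 with normexp, to -0.011 with quantile normalization, to -0.0084 with the value table, and to 0.059 with the scan as a block and with the first scan alone; it was -0.091 with array weights, and it ranged from -0.10 to -0.0056 when each array was left out. With the replicate number as a block, no pairing being shown, 0 members and 0 of all genes were called, and the members' relative median stayed at -0.06.

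The count of all genes called, 303, of which 54.5% were lower, was 244 with quantile normalization (82.8% lower), 605 with median scaling (66.4%), 417 with cyclic loess (76.5%), 383 with normexp (84.6%), 185 with the value table (81.6%), 630 with trend and robust variance (68.6%), 1805 with array weights (38.2%), 125 with the scan as a random block (64.0%) and 0 with the scan as a block, in the first scan alone and without the filter. It was 1736 (20.2% lower) without circHIPK3 siRNA replicate 1, which puts each group in its own scan, and 0 or 1 without any other array. The cause was not tested.

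The TOP list's relative median of -0.08 moved to -0.00017 (quantile), 0.010 (cyclic loess), 0.022 (normexp), 0.0013 (value table) and 0.0041 (scan block, first scan), and was -0.10 to -0.027 with arrays left out. The biogenesis list's -0.04 moved to 0.028 (quantile), 0.029 (cyclic loess), 0.031 (normexp) and 0.029 (value table), and its called genes were 2 lower with array weights, with median scaling and with trend and robust variance, 1 with cyclic loess and normexp, and 0 to 1 with arrays left out, 1 without circHIPK3 siRNA replicate 1. The growth regulators' -0.09 moved to -0.015 (quantile), -0.018 (cyclic loess), 0.0029 (normexp) and -0.013 (value table), and was -0.15 to -0.055 with arrays left out, lowest without circHIPK3 siRNA replicate 2. 1 of them was called lower with trend and robust variance (Eif4ebp2) and 1 with array weights (Tsc2). Of the mitochondrial ribosomal protein genes, 2 were called lower with array weights and 1 with trend and robust variance.

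Single genes with changes near 0 turned sign. Rplp2 gave 0.0056 with quantile normalization and the value table, 0.035 with normexp, 0.10 with the scan block and first scan, and -0.13 to 0.031 with arrays left out. Rps19bp1 gave 0.013 with the scan block and first scan. Rpsa gave 0.0023 with cyclic loess, 0.058 with the scan block and first scan, and -0.081 to 0.061 with arrays left out. Rpl22 gave 0.013 with cyclic loess, 0.017 with normexp, 0.032 with the scan block and first scan, and -0.068 to 0.057 with arrays left out. Rpl3 gave 0.028 with the scan block and first scan and -0.10 to 0.012 with arrays left out. Median scaling gave -0.0050 for Rpl7, -0.012 for Rpl10, -0.067 for Rpl39, -0.013 for Rps27, -0.043 for Rps19 and -0.0094 for Rpl13a, and array weights gave -0.036 for Rps19. With arrays left out, Rpl10 gave -0.0021 to 0.17 and Rpl39 -0.0075 to 0.084.

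Signal over background limits what can be said of Rpl3l, Rpl10l, Rpl39l and Rps4l. The median SE of a member's log2 change was 0.11.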
